A study of Homo sapiens with 18 samples.

Results

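ALDH-high and ALDH-low cells sorted from vehicle-treated PC9 cultures were compared by their open chromatin, using the 3 ATAC-seq peak lists of each fraction, 6 of the 18 libraries in the series. The peaks of these 6 lists on chromosomes 1 to 22 and X were merged wherever they shared at least 1 bp, which gave 45932 regions. A region was called gained when all 3 ALDH-high lists and no ALDH-low list held a peak in it, and lost in the reverse case. By that rule 586 regions were gained (1.28% of the 45932) and 64 were lost (0.139%). The rule was repeated on lists of equal length, the 26225 highest-scoring peaks of each library, which is the length of the shortest list. Of the 40822 regions merged from those shorter lists, 211 were gained (0.517%) and 173 were lost (0.424%).

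PC9 is an established human lung adenocarcinoma line whose growth depends on a mutant EGFR. All 6 compared libraries came from PC9 cells kept in DMSO, the drug vehicle, for 12 h and then sorted by flow cytometry on Aldefluor staining into a high and a low fraction. The other 12 libraries comprised both Aldefluor fractions sorted after 12 h in 1 µM erlotinib (an EGFR kinase inhibitor), unsorted PC9 cells in DMSO, and DTP (drug-tolerant persister) cells, the unsorted survivors of 8 days in 1 µM erlotinib, each with 3 libraries. All groups derive from 1 cell line, all cells were cryopreserved before the assay, and the labels do not say whether libraries a, b and c were separate cultures, so the spread behind each p-value is that between libraries and could be technical. Gene annotation and sequence of hg19, the build of the lists, were not used here, so regions are given by position and cytogenetic band, and the sorted fractions could not be checked against marker genes.

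In ATAC-seq a transposase cuts and tags DNA that is not packed tightly into nucleosomes, so that reads pile up into peaks at active promoters, enhancers and other regulatory elements. Aldehyde dehydrogenases oxidise aldehydes to carboxylic acids, among them retinaldehyde to retinoic acid, and they detoxify aldehydes formed during oxidative stress. Aldefluor is a fluorescent substrate that live cells with high ALDH activity retain, and high ALDH activity is widely used to enrich tumour cells with stem-like or drug-tolerant behaviour. It reports enzyme activity and not chromatin, so a sort on it fixes nothing about which regions are open.

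More regions were called open in the ALDH-high fraction. The ALDH-high libraries a, b and c had 32819, 30336 and 30476 peaks, and the ALDH-low libraries had 26438, 26225 and 26367. The groups did not overlap, and ALDH-high library a stood above the other two of its group. The mean was 31210 ± 1394.9 peaks in ALDH-high and 26343 ± 108 in ALDH-low libraries (SD, n = 3 per group here and throughout), a difference of 4867 peaks or 18.5% (exact two-sided permutation p = 0.1). With 3 libraries against 3 the smallest p of such a test is 0.1, so none of the 77 such tests adjusted together could pass 0.05. The smallest Benjamini-Hochberg adjusted value over these 77 was 0.22. Further exact tests, such as those at a score of at least 100, with the replicate block or with libraries left out, were not among them. Peaks covered 34.0 ± 1.55 Mb in ALDH-high and 29.0 ± 0.367 Mb in ALDH-low libraries, a difference of 5.01 Mb (exact permutation p = 0.1). The lists differed less in the width of peaks. The median peak was 983 ± 4.04 bp wide in ALDH-high and 998 ± 15.3 bp in ALDH-low libraries, and these ranges overlapped (exact permutation p = 0.3).

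Every list ended near the same lowest deposited score, 70. Scores are the authors' own value per peak, on a scale that the sources used here do not state. The median score was 150 ± 2.89 in ALDH-high and 142 ± 0.452 in ALDH-low lists (exact permutation p = 0.1), so the longer lists also carried the higher scores. Read depth is unknown, and its part in these differences was not tested. A region missing from a list was not called there, which is not the same as closed chromatin. Regions held by 1 list and no other of the 6 numbered 3083, 2330 and 2229 for the ALDH-high libraries a, b and c and 1287, 1267 and 1346 for the ALDH-low libraries.

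**Figure D1:**
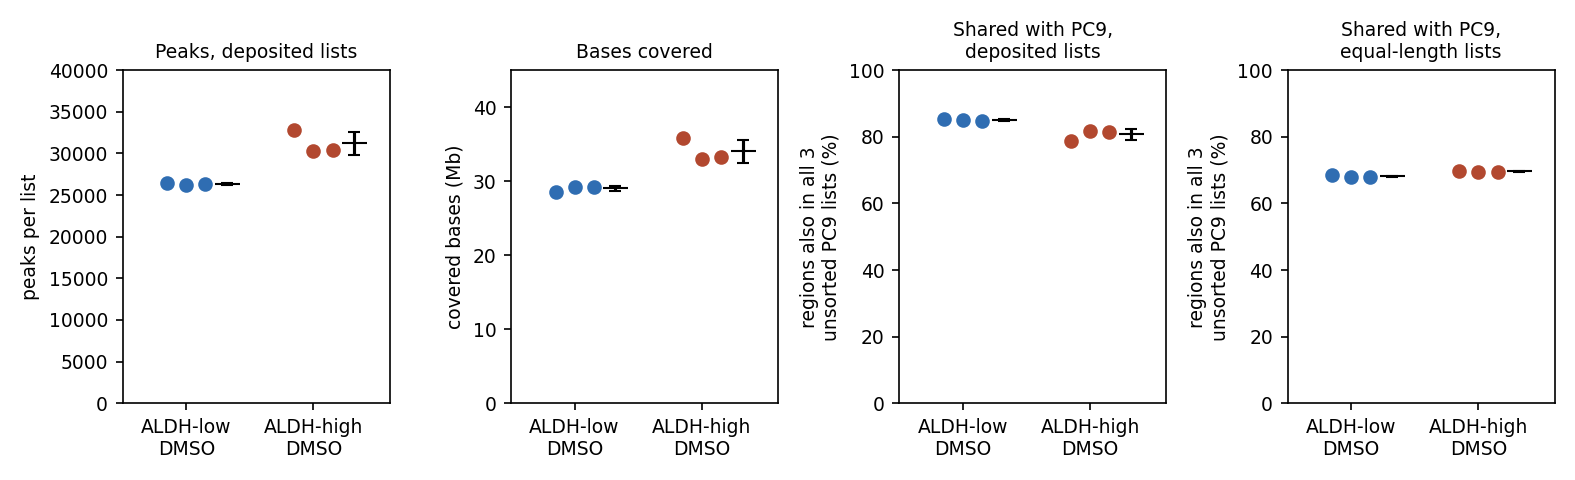
Peaks per list, bases covered in Mb, and the percent of a library's regions that all 3 unsorted PC9 lists also held (lists as deposited, then lists of equal length), with 1 point per library and the mean and SD beside it. The ALDH-high libraries lie above the ALDH-low ones in peaks and bases, below them in the share with PC9 as deposited, and slightly above them in that share at equal length.

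The largest class of regions was held by all 6 lists, with 16489 (35.9%). A single list held 11542 (25.1%). Just outside the rule for gained regions lay 1608 regions held by all 3 ALDH-high lists and 1 ALDH-low list, and 2149 held by 2 ALDH-high lists and none of the ALDH-low ones. The corresponding neighbours of the lost regions numbered 285, held by all 3 ALDH-low lists and 1 ALDH-high list, and 499, held by 2 ALDH-low lists alone. Gained regions thus made up 90.2% of the fully separated regions in the lists as deposited.

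That imbalance went with list length. At equal length the gained regions made up 54.9% of the separated ones. Regions held by more ALDH-high than ALDH-low lists numbered 17609 against 7168 in the opposite direction as deposited, and 10263 against 10450 at equal length. All 6 equal-length lists shared 15496 regions (38.0%). Reaching equal length removed peaks with a score of up to 93.23, 83.64 and 84.19 from the ALDH-high lists a, b and c, and peaks of at most 70.69 and 70.42 from the ALDH-low lists a and c.

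**Figure D2:**
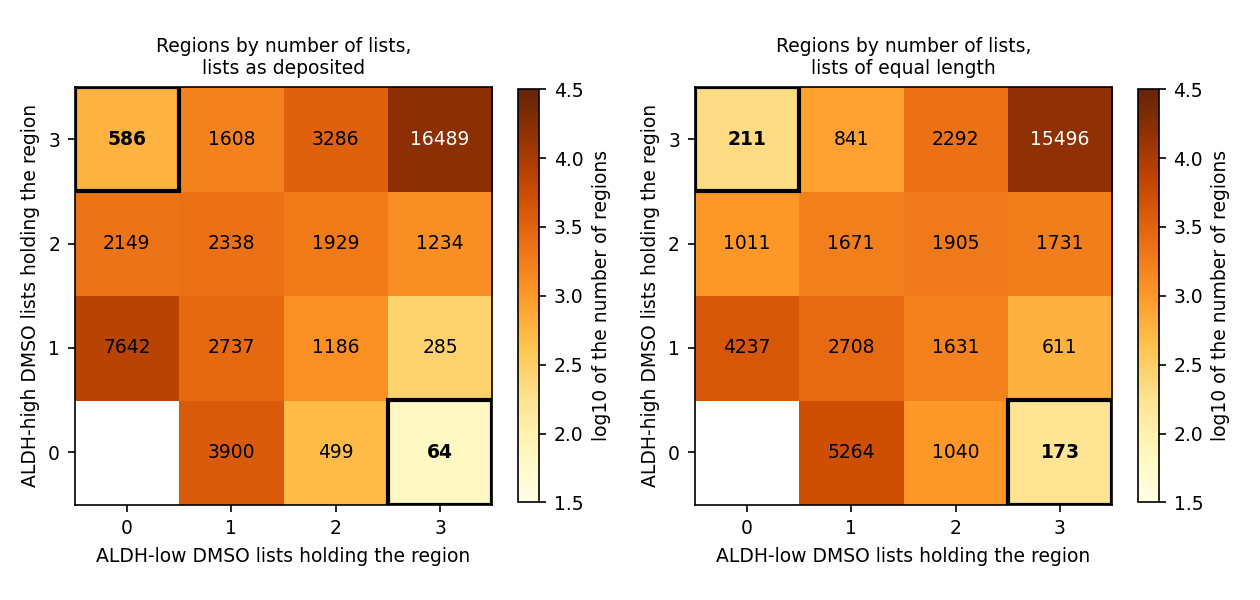
Number of merged regions by how many ALDH-high lists (vertical axis) and ALDH-low lists (horizontal axis) held them, for lists as deposited and of equal length; colour is the log10 of the number, and the boxed corners are the gained (upper left) and lost (lower right) regions. The corners hold 586 and 64 regions as deposited and 211 and 173 at equal length.

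Followed into the equal-length lists, 204 of the 586 gained regions were still held by all 3 ALDH-high lists, 244 by 2, 113 by 1 and 25 by none. Of the 64 lost regions, 62 were still held by all 3 ALDH-low lists. The additional lost regions at equal length were mostly called in the longer ALDH-high lists as well. Among the 173, 62 had no peak in any deposited ALDH-high list, 67 had one in 1 list, 41 in 2 and 3 in all 3. The shortening could hardly add gained regions in this way, since it dropped 6594, 4111 and 4251 peaks from the ALDH-high lists a, b and c but 213, 0 and 142 from the ALDH-low lists.

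The balance between the directions depended on how the lists were matched. With the 5000 highest-scoring peaks of each list, 49 regions were gained and 47 lost, and with 10000 peaks 104 were gained and 109 lost. With 20000 peaks the numbers were 160 and 124. A common score threshold, which leaves the ALDH-high lists longer, gave 520 gained and 43 lost at a score of at least 100, and 265 and 2 at a score of at least 300.

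**Figure D3:**
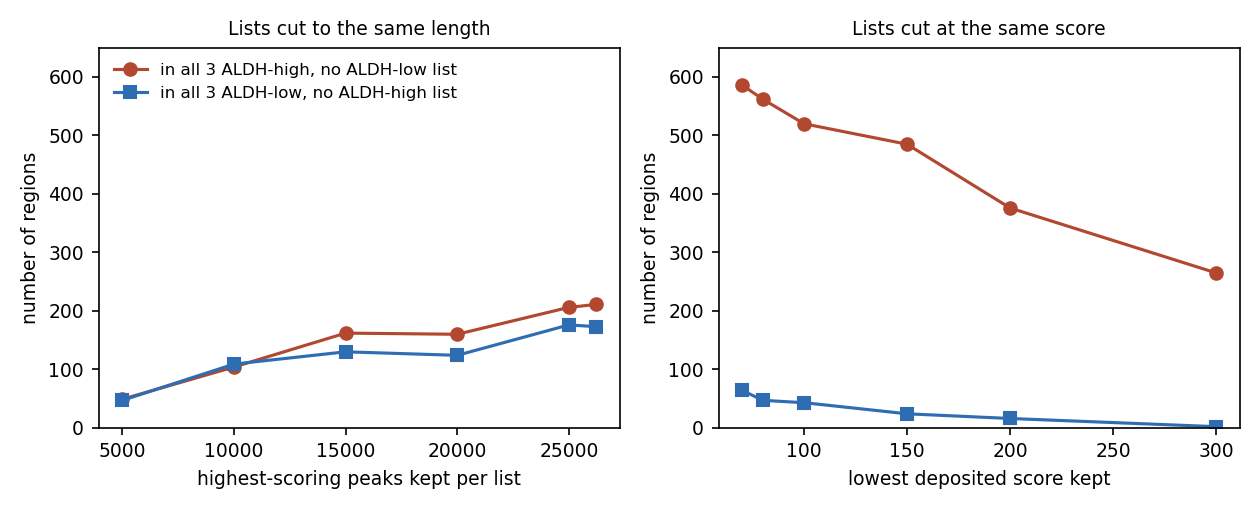
Number of gained regions (circles) and lost regions (squares) against the number of highest-scoring peaks kept per list (left) and against the lowest deposited score kept (right). The 2 lines stay close on the left, at 49 and 47 for 5000 peaks and 211 and 173 for 26225, and far apart on the right, at 586 and 64 for a score of 70 and 265 and 2 for 300.

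The separated regions had low ranks within their own lists, as did other regions that only some of the lists held. For each region the score was turned into a percentile within each list, and the lowest of its 3 percentiles was taken. This value chose which regions are named, and it is given as a description. Its median was 10.7 over the 586 gained regions (range 0.119 to 57.6), and 277 of them (47.3%) lay under the 10th percentile. Over the 64 lost regions the median was 7.04, with 43 (67.2%) under the 10th percentile. For the regions that all 6 lists held, the median in the weakest ALDH-high list was 61.4, and 3.31% lay under the 10th percentile. For regions in 2 ALDH-high lists and no ALDH-low list the lowest percentile had a median of 11.1. It was 12.9 for those in 1 ALDH-high list alone and 9.35 for those in 2 ALDH-low lists alone. In these classes the lowest was taken over fewer lists, which by itself raises it. Over all calls the median percentile was 24.7 for gained regions, 19.1 for 2 ALDH-high lists alone and 12.9 for 1. It was 17.2 for lost regions, 16.0 for 2 ALDH-low lists alone and 70.6 for regions held by all 6 lists. At equal length the lowest percentile had medians of 9.04 for gained and 9.73 for lost regions. The median merged width was 974.5 bp for gained and 999 bp for lost regions. It was 1453 bp for those held by all 6 lists and 1058 bp over all regions. A merged region spans the peaks of every list that held it, so its width tends to rise with the number of lists. Other regions held by 3 lists had medians of 967 bp (2 ALDH-high and 1 ALDH-low list) and 954.5 bp (1 ALDH-high and 2 ALDH-low lists).

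**Figure D4:**
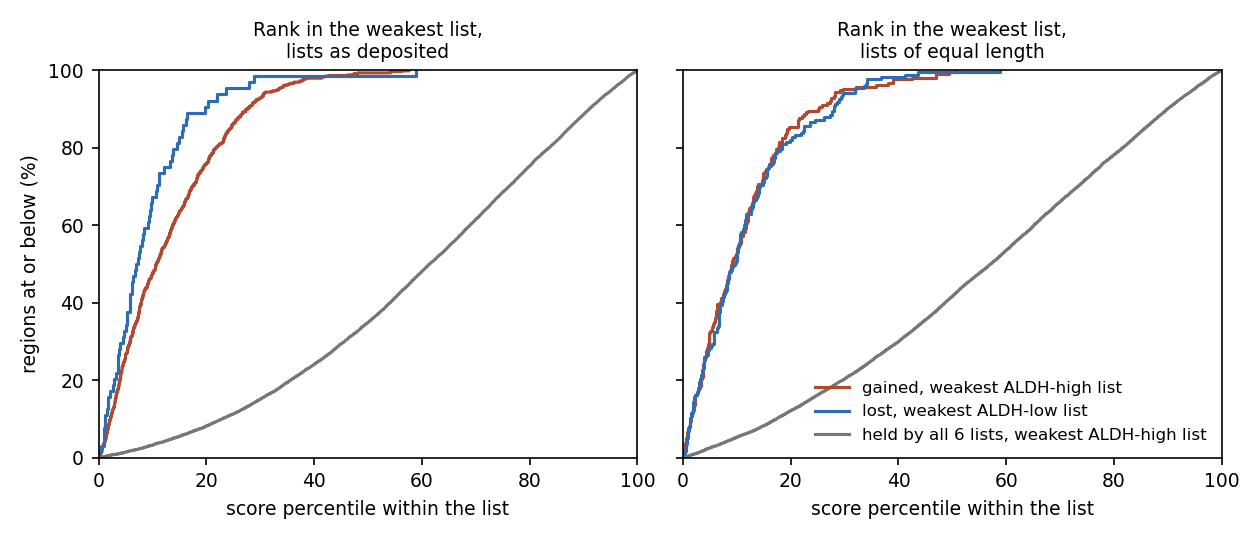
Cumulative percent of regions (vertical axis) at or below a score percentile in the weakest list of the group named in the legend (horizontal axis), for lists as deposited and of equal length. Gained and lost regions rise steeply at the left, with 47.3% and 67.2% under the 10th percentile as deposited, while regions held by all 6 lists are spread over the whole range.

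A few gained regions ranked high in every ALDH-high list. Of the 586, 4 reached the 50th percentile in all 3 lists and 81 the 25th. First among them was 1p22.2 (chr1:89487224-89489106), with scores of 189.35, 222.6 and 171.73 in ALDH-high libraries a, b and c. Next came 1p31.2 (chr1:69169159-69170418), with 206.83, 164.04 and 266.66. The region at 16q23.2 (chr16:81271770-81272804) had 176.76, 179.31 and 161.29, and that at 15q21.1 (chr15:46211786-46212621) had 165.08, 230.77 and 195.63. As deposited, all 4 were held by each of the other 12 libraries, whose lists were mostly longer. All 4 were among the gained regions at equal length too, but there 1p22.2 and 1p31.2 were in 1 of the 3 PC9 lists each, and 15q21.1 was in 2 PC9 lists and 2 ALDH-low erlotinib lists.

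The seventh-ranked gained region, at 2p24.1 (chr2:20365686-20367094), had a different distribution in the lists as deposited. Its scores were 218.59, 140.69 and 149.04 in the ALDH-high libraries. All 3 unsorted PC9 lists and 2 DTP lists held it, and none of the 6 erlotinib lists of either fraction did. The other named gained regions lay at Xq22.3 (chrX:106137443-106138836), 4p16.3 (chr4:3485715-3487101), 12q24.31 (chr12:120907022-120908350), 7q11.23 (chr7:74024433-74025395) and 17q21.33 (chr17:48247999-48249001). As deposited, each was held by at least 5 of the 6 erlotinib lists. At equal length Xq22.3 was in 1 erlotinib list of each fraction, 3 PC9 lists and 0 DTP lists. The 2p24.1 region was then in 0 erlotinib, 3 PC9 and 0 DTP lists. In those lists 4p16.3 was in all 6 erlotinib lists, and 12q24.31 in 2 ALDH-high and 3 ALDH-low ones. At equal length the leading 10 also included Xp22.2 (chrX:16502144-16503201), with 176.37, 239.57 and 214.53, and 11q13.1 (chr11:64737866-64738939), with 164.08, 126.85 and 187.42. The Xp22.2 region was not among the gained regions as deposited.

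Among the lost regions 1 stood above the rest. At 2q33.2 (chr2:204192419-204193635) the ALDH-low libraries a, b and c had scores of 182.53, 164.03 and 196.33, and its weakest percentile was 58.9. As deposited, all 6 erlotinib lists and all 3 PC9 lists held it, and at equal length all 6 erlotinib lists and 2 PC9 lists. The next, at 19p13.3 (chr19:2236075-2237164), had 104.05, 105.49 and 102.59 and a weakest percentile of 28.9. The region at 3q26.31 (chr3:175455226-175456211) had 134.79, 133.94 and 101.21, and no erlotinib list held it. Regions at Xq24 (chrX:118138804-118139530) and 9q22.2 (chr9:92112070-92113460) were in all 6 erlotinib lists and in no PC9 list as deposited. The deposited erlotinib lists were longer than the ALDH-low DMSO lists. At equal length Xq24 was in 1 list of each erlotinib fraction and 9q22.2 in 2 of each, and both were in 0 PC9 lists.

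Equal-length lists named 9 lost regions beside 2q33.2. None of these 9 was among the 64 lost regions as deposited, because each had a peak in a deposited ALDH-high list that the shortening dropped. The leading ones were 3p22.3 (chr3:32461469-32462360), with 148.99, 127.9 and 163.48, and Xp21.3 (chrX:25127013-25127879), with 123.78, 127.74 and 128.83. Neither the region at Xp21.3 nor that at 6p22.3 (chr6:24388987-24389947; 168.96, 110.56 and 110.75) was held by any of the other 12 equal-length lists. Over all 173 lost regions 19 (11.0%) were in none of the 12 others, against 5 of the 211 gained regions (2.37%) and 12.9% of all regions at equal length.

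The libraries that the rule did not use show whether the same regions separated the fractions after erlotinib. ALDH-high erlotinib libraries a, b and c called 67.2%, 57.0% and 67.4% of the 586 gained regions, and ALDH-low erlotinib libraries called 65.2%, 57.7% and 48.5%. The groups overlapped, with means of 63.9% ± 5.96 and 57.1% ± 8.38, a difference of 6.77 percentage points (exact permutation p = 0.3). Over all 45932 regions the same libraries called 68.7% and 65.3%. Set against that share library by library, the difference for gained regions was 3.37 points (exact permutation p = 0.2). At equal length the gained regions were called in 47.6% ± 3.56 and 44.2% ± 1.79 (exact permutation p = 0.3), both below the 58.5% ± 0.240 and 57.7% ± 0.240 of all regions. Against those shares the difference was 2.53 points (exact permutation p = 0.6).

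For the 64 lost regions the shares were 62.5%, 42.2% and 70.3% in ALDH-high erlotinib libraries and 70.3%, 51.6% and 51.6% in ALDH-low ones, a difference of 0.521 points (exact permutation p = 1). With the 173 lost regions at equal length the shares were 39.7% ± 4.34 in ALDH-high and 45.5% ± 2.73 in ALDH-low erlotinib libraries, 5.78 points lower in ALDH-high (exact permutation p = 0.2). Set against all regions library by library, the equal-length difference was −6.57 points and the groups did not overlap (exact permutation p = 0.1), where the 64 regions as deposited gave −2.88 points (exact permutation p = 0.8).

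Few regions were fully separated again. Of the 586 gained regions, 12 (2.05%) were in all 3 ALDH-high and no ALDH-low erlotinib list and 2 (0.341%) were the reverse, where all regions gave 0.782% and 0.231%. At equal length these were 1 and 1 of 211 gained regions, and 0 and 2 of 173 lost regions, where all equal-length regions gave 0.615% and 0.380%. The 1 of 211 (0.474%) in each direction is thus near the share of all regions.

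Unsorted vehicle-treated PC9 cells also had most of the gained regions. The PC9 lists a, b and c called 80.9%, 81.9% and 84.8% of them, and 385 (65.7%) were in all 3 PC9 lists, near the 64.4% of all regions. In none of the PC9 lists were 28 (4.78%), against 14.8% of all regions. At equal length 68 of the 211 gained regions (32.2%) were in all 3 PC9 lists, against 49.2% of all regions. The 3 DTP lists called 66.6%, 69.3% and 72.2%, all lower than any PC9 list although DTP lists were longer. The difference was 13.2 percentage points, from 82.5% ± 2.04 in PC9 to 69.3% ± 2.82 in DTP (exact permutation p = 0.1). Over all regions PC9 and DTP lists called 75.2% and 70.3% (exact permutation p = 0.1).

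Set against the share of all regions library by library, the gained regions stood 7.35 ± 1.21 points above it in PC9 and at −0.968 ± 1.56 points from it in DTP (DTP minus PC9 −8.32 points, exact permutation p = 0.1). At equal length the gained regions lay below all regions in both, at −4.03 ± 4.54 points in PC9 and −12.6 ± 0.594 points in DTP, so the excess in PC9 was not seen there. DTP minus PC9 was still −8.52 points (exact permutation p = 0.1), from gained shares of 56.9% ± 4.57 in PC9 and 42.3% ± 0.724 in DTP. Regions just outside the rule also had a lower share in DTP. Those held by 2 ALDH-high lists and no ALDH-low list had 66.0% in PC9 and 56.6% in DTP, and those held by 2 ALDH-low lists alone had 54.3% and 50.4%. In full separation, 43 gained regions (7.34%) were in all PC9 and no DTP lists and 8 (1.37%) were the reverse, where all regions gave 4.08% and 1.58%.

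Lost regions had fewer counterparts in the PC9 lists by these counts, which were not tested against those of gained regions. Of the 64, 28 (43.8%) were in all 3 and 13 (20.3%) in none, against 64.4% and 14.8% of all regions. PC9 and DTP lists called 64.1% ± 4.69 and 55.7% ± 0.902 of the 64 (exact permutation p = 0.1), against 75.2% and 70.3% of all regions. At a score of at least 100 that gap of 8.33 points was 1.55 points (exact permutation p = 1). At equal length PC9 lists called 35.8% ± 2.52 and DTP lists 37.2% ± 4.64 of the 173 lost regions (exact permutation p = 0.9), where all regions had 60.9% and 54.9%. Set against all regions library by library, the lost regions stood at −25.1 ± 2.57 points in PC9 and −17.7 ± 4.61 points in DTP, without overlap (DTP minus PC9 7.36 points, exact permutation p = 0.1). By the same measure the 64 lost regions as deposited had the opposite sign, at −3.45 points (exact permutation p = 0.3). At equal length 75 lost regions (43.4%) were in no PC9 list, against 37 of the 211 gained regions (17.5%) and 27.4% of all regions.

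**Figure D5:**
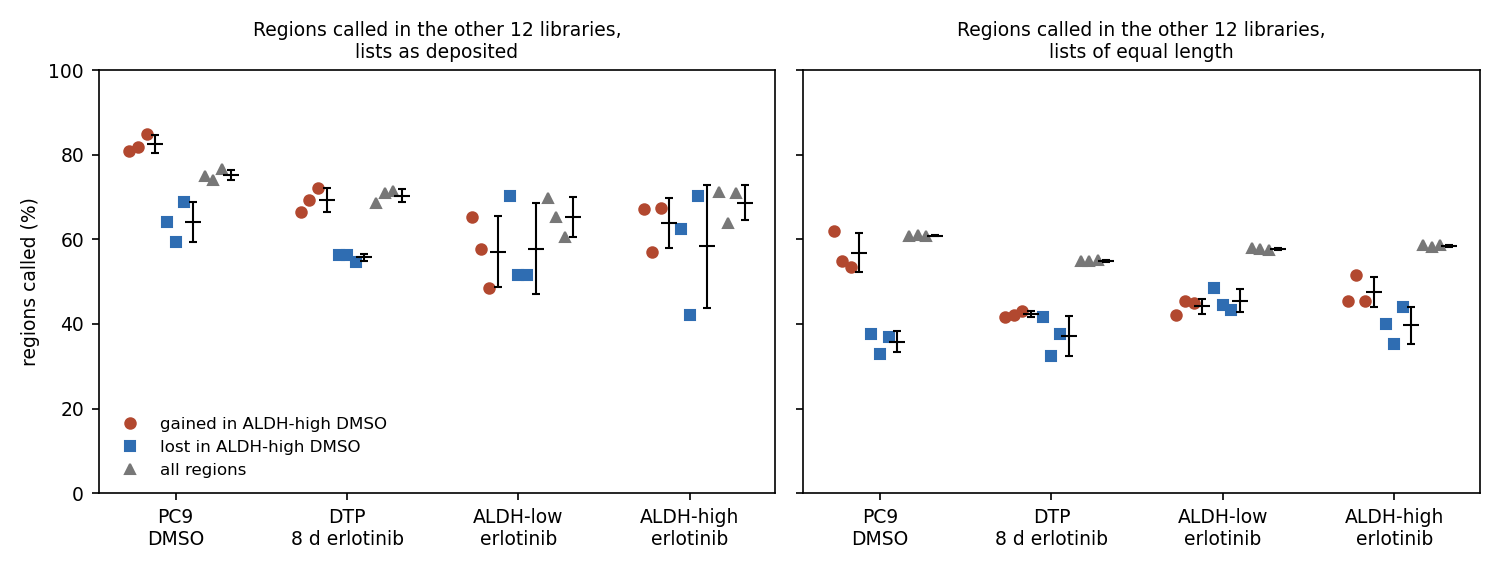
Percent of gained (circles), lost (squares) and all merged regions (triangles) called in each of the 12 libraries that the rule did not use, with 1 point per library and the mean and SD beside each set, for lists as deposited and of equal length. Gained regions have a higher share in PC9 than in DTP in both panels (82.5% and 69.3%, then 56.9% and 42.3%), while the ALDH-high and ALDH-low erlotinib libraries overlap for the gained regions.

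Which fraction resembled the unsorted population more turned with list length. As deposited, 80.7% ± 1.57 of the regions of an ALDH-high list and 85.1% ± 0.260 of those of an ALDH-low list were also in all 3 PC9 lists (ALDH-high minus ALDH-low −4.38 points, exact permutation p = 0.1). At equal length the order was the opposite, with 69.6% ± 0.0761 in ALDH-high and 68.1% ± 0.267 in ALDH-low lists (exact permutation p = 0.1). Neither comparison had overlapping groups. DTP lists gave 61.9% ± 0.291 and 60.8% ± 0.110 at equal length, again higher in each ALDH-high than in each ALDH-low list (exact permutation p = 0.1). The higher share at equal length was thus not particular to PC9. The equal-length ALDH-high lists also covered more bases, 30.2 ± 0.467 Mb against 28.9 ± 0.428 Mb (exact permutation p = 0.1). What part this had in the shares was not tested.

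Libraries of a fraction resembled each other little more than libraries of different fractions. At equal length 2 ALDH-high lists shared on average 67.0% of the regions that either held, 2 ALDH-low lists shared 63.7%, and an ALDH-high and an ALDH-low list shared 64.9%. The ALDH-low lists were thus no closer to each other than to the ALDH-high lists by this measure. In the lists as deposited the shares were 65.3%, 63.6% and 62.8%.

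Among the regions that all 6 lists held, the width of the called peak could be compared between fractions without regard to how the separated regions were chosen. Called bases per region were tested on the log2 scale with limma, with each library centred on its own median, which was 1195, 1172 and 1166 bp in ALDH-high and 1117, 1143 and 1138 bp in ALDH-low libraries. Of 16489 regions, 0 (0%) were wider in ALDH-high and 1 (0.00606%) was narrower at a Benjamini-Hochberg adjusted p under 0.05, and at an unadjusted p under 0.05 the counts were 508 wider and 445 narrower. Without centring, 0 passed in either direction and the unadjusted counts were 807 and 238. The median absolute log2 difference was 0.12, and 9 regions differed by more than 2-fold.

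The 1 called region was at 11q13.2 (chr11:67120060-67123124). Its peak covered 923, 1203 and 958 bp in ALDH-high libraries a, b and c, and 2547, 2736 and 2659 bp were called in the ALDH-low libraries. The groups were far apart (log2 difference −1.43, SE 0.147, limma adjusted p = 0.0432), but the call was lost when any 1 of the 6 libraries was left out. After erlotinib the same region spanned 2236 ± 634 bp in ALDH-high and 2701 ± 173 bp in ALDH-low libraries, which differed by less than the spread of the ALDH-high ones (exact permutation p = 0.3). Unsorted PC9 libraries had 1091, 1133 and 2675 bp, nearly as far apart from each other as the fractions were.

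No other width difference passed the limma test. The largest departure in the opposite direction was at 17q21.32 (chr17:46100347-46104215), with 2517, 3444 and 3761 bp in ALDH-high and 963, 1165 and 1272 bp in ALDH-low libraries (log2 difference 1.45, SE 0.185, limma adjusted p = 0.103). After erlotinib it spanned 3060 ± 701 bp in ALDH-high and 3309 ± 358 bp in ALDH-low libraries (exact permutation p = 0.6). At 13q33.1 (chr13:103356345-103358289) the widths were 1523, 1945 and 1794 bp against 603, 771 and 799 bp, and at 13q34 (chr13:111176432-111179016) they were 1292, 1225 and 1196 bp against 2496, 2161 and 2427 bp (limma adjusted p = 0.103 for each). The 13q34 region was between 1163 and 1357 bp wide in all 6 erlotinib libraries, near the ALDH-high DMSO values. The remaining named regions, at 10q23.33, 6q13 and 14q32.12 (wider) and at 4p15.2, 3q12.3 and 6p21.31 (narrower), had limma adjusted p-values between 0.121 and 0.267, and none of the 10 named regions had an exact permutation p under 0.2 between the fractions after erlotinib.

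The gained regions were scattered over the genome. They lay in 384 of the 803 cytogenetic bands that held any region, and the lost regions in 58. The largest number in 1 band was 7, at 1q41, out of 184 regions there. After it came 8p12 with 6 of 67, 6p22.3 with 5 of 185, Xp11.23 with 4 of 56 and 3p14.1 with 4 of 66. At equal length those bands held 3, 2, 2, 1 and 3 gained regions. The bands 22q12.3, 6q25.3, 13q34, 19p13.11, 12q24.31 and 1q32.1 also held 4 gained regions as deposited, each out of more regions. Of the 586, 32 (5.46%) had another gained region within 50 kb, in 16 pairs, such as the pair at 5q14.1 (chr5:80041044-80077726). No share for other sets of the same size was computed to compare with this. The median distance to the nearest region held by all 6 lists was 34.3 kb for gained and 35.6 kb for lost regions, against 34.7 kb over all regions.

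The share of separated regions varied by chromosome, and the following chromosomes were chosen after their values were seen. Chromosome 1 held 69 gained regions (11.8%) and 10.1% of all regions, and 1 of the 64 lost ones. At equal length it held 31 of the 211 gained regions (14.7%). Chromosome 12 held 6.14% of the gained regions and 4.25% of all regions, and 7.58% of the gained ones at equal length. Chromosome 21 held 1.71% of the gained regions and 1.06% of all. Chromosome 19, which is gene-dense, held 17 gained regions (2.90%) and 8 lost ones (12.5%), against 3.33% of all regions. Equal-length lists placed 11 of the 211 gained regions (5.21%) and 14 of the 173 lost regions (8.09%) there. These shares were not tested, because neighbouring regions are not independent.

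The bands of 5 ALDH genes, as placed by general knowledge, were looked at one by one. Bands of other ALDH genes were not counted, so the values below do not cover the whole family. At 9q21.13, the band of ALDH1A1, which oxidises retinaldehyde and is one of the isoforms behind Aldefluor staining, 2 of 89 regions (2.25%) were gained and 31 were held by all 6 lists. These were chr9:74919771-74920590, with scores of 103.46, 104.64 and 83.04 in ALDH-high libraries a, b and c, and chr9:74746536-74747798, with 143.64, 80.34 and 111.89. The first was in all DTP and no PC9 lists, and the second in all PC9 and no DTP lists. The band of ALDH1A2, at 15q21.3, had 1 gained region of 60 (1.67%). Over all regions the share was 1.28%, and with so few regions these values cannot be told apart from it. None was gained among the 100 regions at 15q26.3 (ALDH1A3, another retinaldehyde dehydrogenase), the 18 at 12q24.12 (ALDH2, the mitochondrial acetaldehyde dehydrogenase) or the 148 at 17p11.2 (ALDH3A1). These 5 bands held 0 lost regions, and at equal length 0 of either kind. A band spans many genes, and which of them lies nearest to a region was not determined.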

How the data were processed

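Open chromatin was measured by ATAC-seq in 18 libraries with 1 deposited peak list each, which the authors called library by library. The tools were BWA, MACS 1.4.2 and the build hg19, per the submitters' processing notes. Trimming, duplicate removal, read shifting and calling parameters were not given in the sources used here. The deposited score of each peak is the authors' value. It was used for ranking inside each list, for score thresholds common to the lists and for the median score per list. Deposited starts and ends are other values, converted to positions counted from 1. Read depth is unknown, so no intervals for counting error are given.

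Groups came from the sample labels. The members, lists and rules were chosen with earlier results of these data known. Peaks were merged in Python 3.11.15 (numpy 2.4.6, pandas 2.3.3), and ties at the equal-length border were kept in file order. The merged regions were checked against bedtools 2.31.1, and the calls and the width test were tested on simulated data. For values per library the test was an exact permutation test, two-sided. Called width was tested with limma 3.58.1 in R 4.3.3 (log2 of called bases, adjusted over the regions held by all 6 lists). Bands are those of hg19 in circlize 0.4.16.

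Regions were named by rule: per direction the 10 with the highest weakest-library score percentile, as deposited and at equal length, the 5 with the smallest limma p, and the 5 bands with most gained regions. Among bands with the same number of gained regions, those with the fewest regions came first. The ALDH bands were added after seeing the data. Gene lists and cell type markers needed an hg19 annotation, which was not used here. Alternatives were equal-length lists, 20000 peaks, a score of at least 100, 50% cover, merging across 100 bp, the union of all 18 lists, all sequences, no centring, a replicate block and each library left out. The alternatives for the DTP and PC9 shares, and leaving out libraries at equal length, were chosen after seeing the data.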

Additional observations from a re-analysis of the deposited data

How the results depend on the processing

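The 586 gained and 64 lost regions became 211 and 173 at equal length and 160 and 124 with 20000 peaks. They stayed within 1.5 times at a score of at least 100, with 50% cover, with merging across 100 bp, in the union of all 18 lists and over all sequences. With any 1 library left out, which loosens the rule, there were 1102 to 1382 gained and 133 to 248 lost regions as deposited, and 476 to 560 and 348 to 541 at equal length. The difference in peaks ranged from 4062.7 to 5304.2 and that in covered bases from 4.119 to 5.502 Mb without 1 library.

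Among the differences tried under the alternatives, equal length reversed 3. The share of lost regions called under erlotinib went to −5.78 points (ALDH-high minus ALDH-low), that of lost regions in DTP minus PC9 to 1.349 points, and the share of regions also in PC9 to 1.511 points. Without 1 library the first ranged from −5.469 to 8.594 points, with the sign turning without ALDH-high erlotinib library a or c or ALDH-low erlotinib library b or c, so it has no settled direction. The gained regions' share under erlotinib ranged from 2.446 to 10.81 points and their DTP minus PC9 difference from −14.62 to −11.8. The 1 narrower region became 0 without centring, with the replicate block and without any 1 library.

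Width deviations of libraries with the same letter were not correlated (between −0.00527 and −0.00127). This measure cannot show whether libraries with the same letter shared a culture or a sort. With the replicate block the peak difference stayed 4867 (exact permutation p = 0.25, the smallest that block allows), and apart from the 1 narrower region no call changed. Depth is unknown, so weak calls near the lowest score cannot be told apart from differences in sequencing, and single regions rest on 6 calls each.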
